A study of Mus musculus with 6 samples.

Results

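The cell layers of cortical blood vessels were followed through 36 listed genes, 26 of them endothelial, 9 of mural cells (5 of pericytes and 4 of smooth muscle) and 1, Vegfa, a ligand that acts on endothelium. Members were taken by gene symbol alone. Of the 36 genes, 34 had at least 1 probe set with a single gene symbol, 59 probe sets in all, out of 18193 genes named in this way on the array. Ly6a was not named in the annotation used here, and the probe set for Ly6c1 also names Ly6c2, so neither is given a value. Total RNA of mouse cerebral cortex was measured on 6 Affymetrix arrays. In 3 arrays the label was double knockout of Egr1 and Egr3, which encode zinc finger transcription factors induced by neuronal activity, and in 3 it was wild type (DKO-labelled and WT arrays). The labels give no strain, age, allele, batch, pairing or protocol. Nothing in them ties an array to an animal of its own, so each p-value speaks of spread among arrays. How much of that spread is technical and how much lies between animals is not given. The comparison asks which transcripts differ in cortex labelled as lacking both factors.

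Brain vessels are built of a tube of endothelial cells sealed by tight junctions and equipped with transporters, which together form the blood-brain barrier. Endothelial cells release Pdgfb, which holds pericytes to the capillary wall through the receptor Pdgfrb, while contractile smooth muscle cells wrap arteries and arterioles. Vegfa made by neurons and glia acts on the endothelial receptors Kdr and Flt1, and Notch3 signals in both kinds of mural cell.

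Signals are linear probe set intensities that the depositors had scaled to an equal trimmed mean per array. Array medians lay at 36.2, 37.9 and 37.9 in DKO-labelled replicates 1, 2 and 3 and at 39.5, 37.2 and 36.3 in WT replicates 1, 2 and 3, and values in each sentence keep that order of replicates. Egr3 read 339, 369.9 and 507 in DKO-labelled arrays, against 1189, 2669.6 and 924 in WT arrays, a log2 difference of -1.80 (limma adjusted p = 0.0361). Egr1 read 2116, 2647 and 2657 in DKO-labelled arrays, against 1247, 2054 and 1429.6 in WT arrays, which goes against the label, with a log2 difference of 0.67 (limma adjusted p = 0.108). Where the probes lie relative to the deleted parts is not given in the sources used here. DKO-labelled replicate 2 was the only array with RNA of a female (Xist 3140, against 12.6 and 18.8 in DKO-labelled replicates 1 and 3). Its RNA was therefore not a repeat of the RNA of those arrays. WT replicate 1 had dim spiked controls. DKO-labelled replicate 1 is double knockout by its description, while its title names no genotype and is worded like those of the WT arrays, unlike the titles of DKO-labelled replicates 2 and 3. Without that array 143 probe sets and 1 member, Pltp, had an adjusted p under 0.05 in limma, and the median log2 differences were -0.07 over the endothelial and -0.16 over the mural members. The choroid plexus transcript Ttr read 4697, 37.5 and 34.6 in DKO-labelled arrays, against 71.01, 375 and 10347 in WT arrays, so WT replicate 3 and DKO-labelled replicate 1 stood far above the other 4 arrays.

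No vascular member passed the test. Of the 34 members 29 had a probe set above the brightness filter, and 0 of their 47 tested probe sets reached an adjusted p under 0.05 in limma, where 1.02% of all 22518 tested probe sets did. At an unadjusted p under 0.05 stood 6 of the 29 members on their brightest tested probe set, against 17.5% of all 11053 genes tested. The arrays of the groups did not overlap for 7 members. Flt1, Slc2a1 and Vwf were higher in all 3 DKO-labelled arrays (12.2% of all genes were), and Slco1c1, Emcn, Rgs5 and Vtn were lower in all 3 (11.1% of all genes were). These shares lie near those of all genes. On the log2(signal + 16) scale used throughout, the median difference, DKO-labelled minus WT, was -0.08 over the 22 endothelial members tested and -0.15 over the 6 mural members tested, beside 0.0083 over all tested genes. In RNA of whole tissue, fewer cells of a type and less RNA per cell cannot be told apart.

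**Figure D1:**
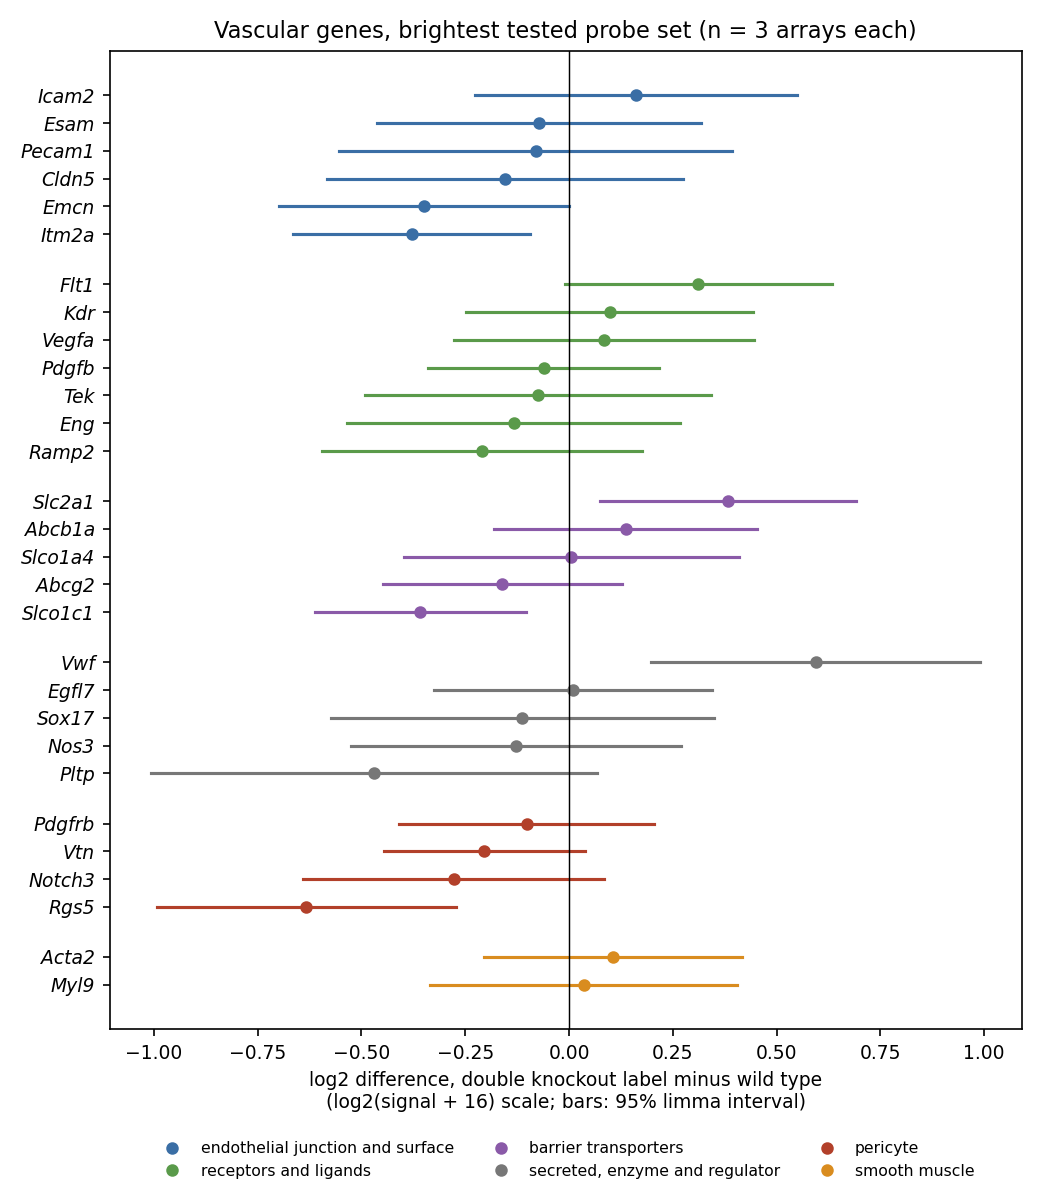
Log2 difference in signal, DKO-labelled minus WT, of the 29 tested vascular genes (rows, grouped by role) on the brightest tested probe set, with the 95% limma interval as a bar (n = 3 arrays per group). Points lie between -0.63 for Rgs5 and 0.59 for Vwf, and no member passed an adjusted p of 0.05.

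Promoters from 250 bases before to 50 bases after the start site were held in RefSeq (build GRCm38.p6) for 23 members, 29 windows in all. They were searched on both strands for the Egr motifs GCGTGGGCG and GCGGGGGCG and for the CArG box, which serum response factor binds in smooth muscle genes. GCGGGGGCG was found in 1 window each of Flt1, Abcg2 and Notch3 and in 2.91% of all 32851 windows, GCGTGGGCG in none of the members' windows and in 0.612% of all, and the CArG box in that of Myl9 and in 1.63% of all. The CArG box was searched only in its strict form (CC, then a run of A or T, then GG, with no mismatch), so the search says nothing of looser forms of the box in any window, that of Acta2 included. The 3 windows with an Egr motif are shown because Egr1 and Egr3 bind such letters, those of Myl9 and Acta2 because they are the smooth muscle members with an entry, and that of Rgs5 because it had the largest difference. The sets beyond smooth muscle were picked after the values were seen. Sequences run 5′ to 3′ along the gene, and capitals mark a match on either strand.
Flt1, chr5:147725962-147726261, minus strand: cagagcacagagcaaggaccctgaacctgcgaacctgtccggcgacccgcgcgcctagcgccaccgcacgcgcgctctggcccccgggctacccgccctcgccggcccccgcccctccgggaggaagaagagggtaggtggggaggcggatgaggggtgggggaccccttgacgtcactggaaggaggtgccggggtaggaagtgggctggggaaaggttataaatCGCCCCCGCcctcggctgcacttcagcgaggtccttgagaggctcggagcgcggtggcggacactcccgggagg
Abcg2, chr6:58596422-58596721, plus strand: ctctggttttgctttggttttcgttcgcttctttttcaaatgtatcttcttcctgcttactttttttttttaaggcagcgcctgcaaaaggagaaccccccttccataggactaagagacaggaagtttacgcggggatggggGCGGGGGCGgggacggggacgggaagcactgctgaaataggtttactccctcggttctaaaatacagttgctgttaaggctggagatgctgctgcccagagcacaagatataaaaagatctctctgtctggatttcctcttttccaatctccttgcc
Notch3, chr17:32166841-32167140, minus strand: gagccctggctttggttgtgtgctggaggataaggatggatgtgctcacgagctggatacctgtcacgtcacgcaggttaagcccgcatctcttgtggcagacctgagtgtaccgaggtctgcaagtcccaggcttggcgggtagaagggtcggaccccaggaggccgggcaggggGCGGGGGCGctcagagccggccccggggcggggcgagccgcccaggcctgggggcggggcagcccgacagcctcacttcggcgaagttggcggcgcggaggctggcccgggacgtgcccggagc
Myl9, chr2:156775214-156775513, plus strand: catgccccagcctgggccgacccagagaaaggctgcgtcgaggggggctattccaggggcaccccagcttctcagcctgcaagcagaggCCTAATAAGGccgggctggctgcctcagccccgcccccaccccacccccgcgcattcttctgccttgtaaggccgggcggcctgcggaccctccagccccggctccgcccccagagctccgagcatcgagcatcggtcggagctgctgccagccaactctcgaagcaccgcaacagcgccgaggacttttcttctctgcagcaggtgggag
Acta2, chr19:34255324-34255623, minus strand: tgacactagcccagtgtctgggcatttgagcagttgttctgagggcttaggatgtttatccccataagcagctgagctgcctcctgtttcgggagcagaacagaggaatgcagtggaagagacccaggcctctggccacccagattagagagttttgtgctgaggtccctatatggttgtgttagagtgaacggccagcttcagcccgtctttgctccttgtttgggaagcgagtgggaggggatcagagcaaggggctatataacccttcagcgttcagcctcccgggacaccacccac
Rgs5, chr1:169655251-169655550, plus strand: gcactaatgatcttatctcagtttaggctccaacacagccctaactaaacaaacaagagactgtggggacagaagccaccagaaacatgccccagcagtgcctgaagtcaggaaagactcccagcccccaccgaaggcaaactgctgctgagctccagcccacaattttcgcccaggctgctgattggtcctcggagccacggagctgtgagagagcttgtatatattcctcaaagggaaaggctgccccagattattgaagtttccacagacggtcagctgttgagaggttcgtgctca
The match begins 24 bases before the start site in Flt1, 107 bases before it in Abcg2, 74 bases before it in Notch3 and 161 bases before it in Myl9. Abcg2 has 3 windows in the table, and the 2 others held no match. A match is a string of letters, and whether a factor binds there was not measured.

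Tested junction and surface genes of the endothelium overlapped between the groups, apart from Emcn and 1 probe set of Itm2a. Cldn5, the main claudin of the blood-brain barrier's tight junctions, read 284, 267 and 214 in DKO-labelled arrays, against 365, 205 and 304 in WT arrays. The arrays overlapped, and the 95% interval of the log2 difference (-0.58 to 0.27) admits changes in either direction. Pecam1, an adhesion molecule of endothelial junctions, read 33.9, 62.9 and 42.8 in DKO-labelled arrays, against 52.6, 36.8 and 59.5 in WT arrays, also with overlapping arrays and a log2 difference of -0.08. Esam, an adhesion molecule of the same junctions, read 114, 146 and 92.2 in DKO-labelled arrays, against 144, 109 and 117 in WT arrays, a log2 difference of -0.07. Cdh5, the endothelial cadherin, lay below the filter and was not tested, with 28.3, 31.5 and 26.9 in DKO-labelled arrays, against 31.5, 36.1 and 35.6 in WT arrays. All 3 DKO-labelled arrays were below the lowest WT array there, by a narrow gap and under the median of the array. A second Cdh5 probe set was dimmer still and overlapped.

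Emcn, a sialoglycoprotein of the endothelial surface, was lower in each DKO-labelled array than in any WT array, with 46.8, 60.8 and 56.1 in DKO-labelled arrays, against 83.98, 66.3 and 71.5 in WT arrays. The log2 difference of -0.35 with an SE of 0.16 (limma adjusted p = 0.301) did not pass. Itm2a, a membrane protein enriched in brain endothelium, read 1006, 816 and 765 in DKO-labelled arrays, against 995, 1131 and 1243 in WT arrays on its brighter probe set, where DKO-labelled replicate 1 and WT replicate 1 overlapped. The log2 difference was -0.38 with an SE of 0.13 (limma adjusted p = 0.191). Its dimmer probe set read 562, 488 and 472 in DKO-labelled arrays, against 646, 563 and 671 in WT arrays without overlap, a log2 difference of -0.30 with an SE of 0.11 (limma adjusted p = 0.2298). Both Itm2a probe sets thus gave the same sign and a like size. Icam2, a ligand of leukocyte integrins, was the only tested gene of this group with a positive difference (0.16), on a probe set near the array median that read 34.8, 49.5 and 38.2 in DKO-labelled arrays, against 28.5, 36.8 and 38.96 in WT arrays.

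The receptors that vessels use to read growth factors showed no difference past the threshold. Kdr, the chief signalling receptor for Vegfa, read 53.5, 62.5 and 50.5 in DKO-labelled arrays, against 45.01, 51.1 and 56.3 in WT arrays, a log2 difference of 0.10 with a 95% interval of -0.25 to 0.44. Flt1, the second Vegfa receptor and one that can act as a decoy, read 109, 97.1 and 83.1 in DKO-labelled arrays, against 74.8, 74.5 and 73.3 in WT arrays on its brightest probe set, without overlap. That difference was 0.31 with an SE of 0.14 (limma adjusted p = 0.316). The other 3 tested Flt1 probe sets overlapped between the groups and differed by 0.08, -0.12 and 0.06, so the probe sets of Flt1 disagreed in sign. Vegfa itself read 187, 227 and 231 in DKO-labelled arrays, against 218, 238 and 156 in WT arrays on the brighter and 57.001, 54.3 and 73.5 in DKO-labelled arrays, against 51.7, 62.4 and 49.96 in WT arrays on the dimmer probe set. Both overlapped, at 0.08 and 0.13.

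Tek, the angiopoietin receptor also called Tie2, read 61.8, 76.6 and 50.4 in DKO-labelled arrays, against 56.5, 60.7 and 84.7 in WT arrays, a log2 difference of -0.08. Tie1, its orphan relative, lay below the filter with 12.1, 3.22 and 12.2 in DKO-labelled arrays, against 29.2, 9.82 and 18.99 in WT arrays, and its arrays overlapped. Eng, a coreceptor for the transforming growth factor beta family, read 107, 97.1 and 117 in DKO-labelled arrays, against 158, 93.5 and 112 in WT arrays (log2 difference -0.13), and its highest value was that of WT replicate 1. A second Eng probe set below the filter pointed the other way, with 40.01, 37.3 and 35.2 in DKO-labelled arrays, against 26.05, 31.5 and 33.8 in WT arrays and no overlap. Ramp2, which pairs with the adrenomedullin receptor, read 167, 201 and 159 in DKO-labelled arrays, against 222, 155 and 249 in WT arrays, with overlap and a log2 difference of -0.21. Pdgfb, the endothelial signal to pericytes, read 202, 256 and 249 in DKO-labelled arrays, against 256, 229.8 and 250.2 in WT arrays, a log2 difference of -0.06. Its dimmer probe set differed by -0.09 and its lowest value, 45.7, was that of DKO-labelled replicate 1.

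Among the barrier transporters, differences of both signs stood side by side. Slc2a1, the glucose transporter GLUT1, read 865, 1188 and 1023 in DKO-labelled arrays, against 808, 669 and 864 in WT arrays on the brightest probe set, where DKO-labelled replicate 1 lay just above WT replicate 3. The log2 difference was 0.38 with an SE of 0.14 (limma adjusted p = 0.212). A second probe set read 475, 550.5 and 465 in DKO-labelled arrays, against 374, 330.0 and 456 in WT arrays, also without overlap, a log2 difference of 0.36 with an SE of 0.13 (limma adjusted p = 0.221). The third read 311, 545 and 450.0 in DKO-labelled arrays, against 416, 256 and 345 in WT arrays and overlapped, a log2 difference of 0.34 with an SE of 0.21 (limma adjusted p = 0.457). All 3 probe sets of Slc2a1 therefore differed upward by a like amount, with DKO-labelled replicate 1 lowest or next to lowest of its group in each.

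Slco1c1, the thyroxine transporter of brain endothelium and astrocytes, went the other way and read 657, 543 and 576 in DKO-labelled arrays, against 789, 682 and 819 in WT arrays. The groups did not overlap, and the log2 difference was -0.36 with an SE of 0.11 (limma adjusted p = 0.1696). Slco1a4, an organic anion transporter encoded near Slco1c1 with 2 protein-coding genes between them in RefSeq, read 261, 319.5 and 354 in DKO-labelled arrays, against 292, 244 and 409 in WT arrays. Its arrays overlapped fully, with a log2 difference of 0.0056 and a 95% interval of -0.40 to 0.41. The efflux pump Abcb1a, a P-glycoprotein, read 131, 151 and 142 in DKO-labelled arrays, against 125, 110.0 and 149 in WT arrays (log2 difference 0.14), and its dimmer probe set differed by 0.16. Abcg2, the second main efflux pump of the barrier, read 189, 179 and 218 in DKO-labelled arrays, against 198, 217 and 246 in WT arrays, with overlap and a log2 difference of -0.16.

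**Figure D2:**
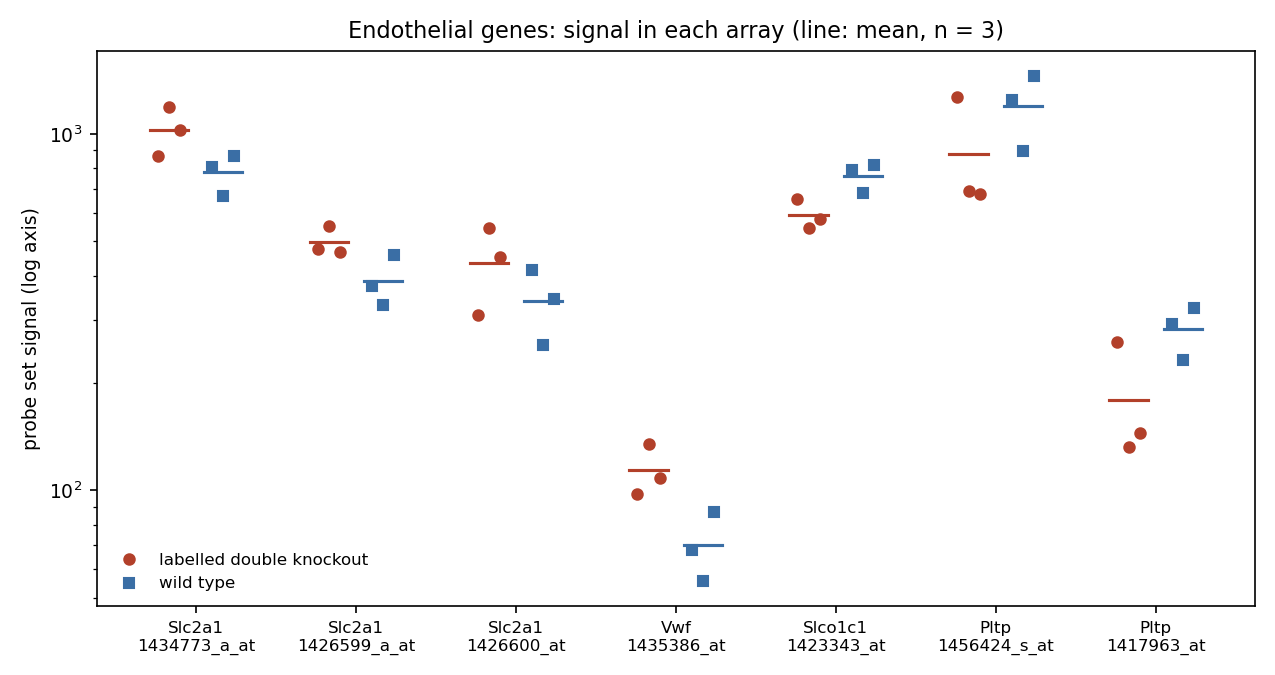
Signal in each array (log axis) for every tested probe set of Slc2a1, Vwf, Slco1c1 and Pltp, DKO-labelled arrays left and WT arrays right, with the mean of 3 arrays as a line. Vwf and the 2 brighter Slc2a1 probe sets were higher and Slco1c1 lower without overlap, and in Pltp the highest DKO-labelled array is replicate 1.

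Vwf, the clotting protein stored in endothelial granules, had the largest positive difference of the members. It read 97.7, 135 and 108 in DKO-labelled arrays, against 68.1, 55.6 and 86.9 in WT arrays, with 114 ± 19.1 in DKO-labelled arrays and 70.2 ± 15.8 in WT arrays (SD, n = 3 each). The lowest DKO-labelled array lay above the highest WT array, and the log2 difference was 0.59 with an SE of 0.18 (limma adjusted p = 0.145). Over the alternative settings the adjusted p of Vwf ran from 0.101 to 0.474, so it passed in none. Nos3, the endothelial nitric oxide synthase, read 83.1, 65.7 and 51.6 in DKO-labelled arrays, against 84.9, 64.98 and 71.4 in WT arrays (log2 difference -0.13). Egfl7, a secreted endothelial protein, read 228, 187 and 218 in DKO-labelled arrays, against 252, 172 and 210.1 in WT arrays, a log2 difference of 0.0093, and its other 3 tested probe sets overlapped as well, between -0.07 and 0.23. Sox17, a transcription factor of arterial endothelium, read 72.9, 64.2 and 40.3 in DKO-labelled arrays, against 78.4, 51.3 and 63.6 in WT arrays (log2 difference -0.11), and its dimmer probe set differed by 0.10, with the opposite sign.

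Pltp, the phospholipid transfer protein, varied widely between arrays of the same group. The brighter probe set read 1270.0, 692 and 677 in DKO-labelled arrays, against 1240.1, 892 and 1452 in WT arrays, and the dimmer one 260.4, 132 and 144 in DKO-labelled arrays, against 292, 232 and 325 in WT arrays. In both, DKO-labelled replicate 1 lay inside the WT range, whereas replicates 2 and 3 lay below it. The log2 differences were -0.47 with an SE of 0.24 (limma adjusted p = 0.366) and -0.66 with an SE of 0.22 (limma adjusted p = 0.189). Without DKO-labelled replicate 1 the dimmer probe set passed, at -0.95 (limma adjusted p = 0.0457), within a range of 0.0457 to 0.559 over the alternatives. DKO-labelled replicate 1 and WT replicate 3 were also the 2 arrays with high Ttr. WT replicate 1, with Pltp at 1240.1 and 292, had a Ttr of only 71.01. Over the 4 choroid plexus genes tested, the per-array median deviation from the mean of the 6 arrays was -0.04, -0.64 and -0.53 in DKO-labelled arrays, against -0.32, -0.32 and 2.06 in WT arrays. The part of choroid plexus RNA in the Pltp values was not tested.

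Pericyte genes were all lower in DKO-labelled arrays among the 4 tested, with a median log2 difference of -0.24, and none passed. Rgs5, a regulator of G protein signalling and one of the most used pericyte markers, had the largest difference of all members. Its brightest probe set read 585, 726 and 546 in DKO-labelled arrays, against 749, 1069 and 1108 in WT arrays, with 619 ± 94.7 in DKO-labelled arrays and 975 ± 197 in WT arrays (SD, n = 3 each). All 3 DKO-labelled arrays lay below all 3 WT arrays, and the log2 difference was -0.63 with an SE of 0.16 (limma adjusted p = 0.102). A second probe set read 129.9, 219 and 99.8 in DKO-labelled arrays, against 267, 268 and 309 in WT arrays, again without overlap, a log2 difference of -0.91 with an SE of 0.22 (limma adjusted p = 0.0929). The dimmest tested one read 30.1, 66.9 and 49.1 in DKO-labelled arrays, against 60.1, 128 and 121 in WT arrays and overlapped in 1 pair of arrays, DKO-labelled replicate 2 and WT replicate 1, a log2 difference of -0.86 with an SE of 0.28 (limma adjusted p = 0.172).

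The remaining Rgs5 probe set did not follow. It read 230.3, 173 and 180.5 in DKO-labelled arrays, against 242, 171 and 227 in WT arrays, with overlapping arrays and a log2 difference of -0.12 with an SE of 0.16 (limma adjusted p = 0.754). By Affymetrix naming, the suffixes s and x of the 2 dimmer probe sets with large differences mark probes that can match more than 1 transcript. The brightest tested probe sets of Egfl7, Sox17, Pltp, Notch3 and Acta2 carry such a suffix too. Without DKO-labelled replicate 2, the array of the female and the highest of its group on 3 of the 4 probe sets, the second probe set passed at -1.19 (limma adjusted p = 0.0292), within a range of 0.0292 to 0.279. The brightest probe set passed in no alternative (0.0532 to 0.328).

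Vtn, which encodes vitronectin, an adhesive protein that brain pericytes deposit, was lower without overlap on both probe sets. The brighter one read 467, 379 and 401 in DKO-labelled arrays, against 469.9, 473 and 496 in WT arrays, where the gap between DKO-labelled replicate 1 and WT replicate 1 was a few units, and the log2 difference was -0.20 with an SE of 0.11 (limma adjusted p = 0.384). The dimmer one read 145, 126 and 147 in DKO-labelled arrays, against 201, 216 and 208 in WT arrays, with a wider gap and a log2 difference of -0.53 with an SE of 0.12 (limma adjusted p = 0.0741). That was the smallest adjusted p of any member, and it ran from 0.0592 to 0.319 over the alternatives. At a looser threshold of an adjusted p under 0.1, Rgs5 and Vtn were the only members past it, through the dimmer Vtn and the second Rgs5 probe set. These came from 47 tested member probe sets, where 586 of all 22518 tested probe sets were past that threshold.

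The other pericyte members showed smaller differences. Pdgfrb, the receptor through which Pdgfb acts, read 126, 119 and 144 in DKO-labelled arrays, against 131, 131 and 159 in WT arrays, with overlap and a log2 difference of -0.10 (95% interval -0.41 to 0.21). A dimmer Pdgfrb probe set below the filter pointed up, at 0.10, with 60.1, 25.1 and 17.99 in DKO-labelled arrays, against 17.3, 22.04 and 52.7 in WT arrays. Notch3 read 53.9, 67.6 and 52.6 in DKO-labelled arrays, against 70.6, 64.2 and 86.8 in WT arrays, where DKO-labelled replicate 2 lay above WT replicate 2, and the log2 difference was -0.28 with an SE of 0.16 (limma adjusted p = 0.426). Anpep, the surface aminopeptidase CD13, lay below the filter with 22.6, 21.3 and 23.1 in DKO-labelled arrays, against 21.9, 28.9 and 20.8 in WT arrays, values that overlapped and lay under the median of the array.

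**Figure D3:**
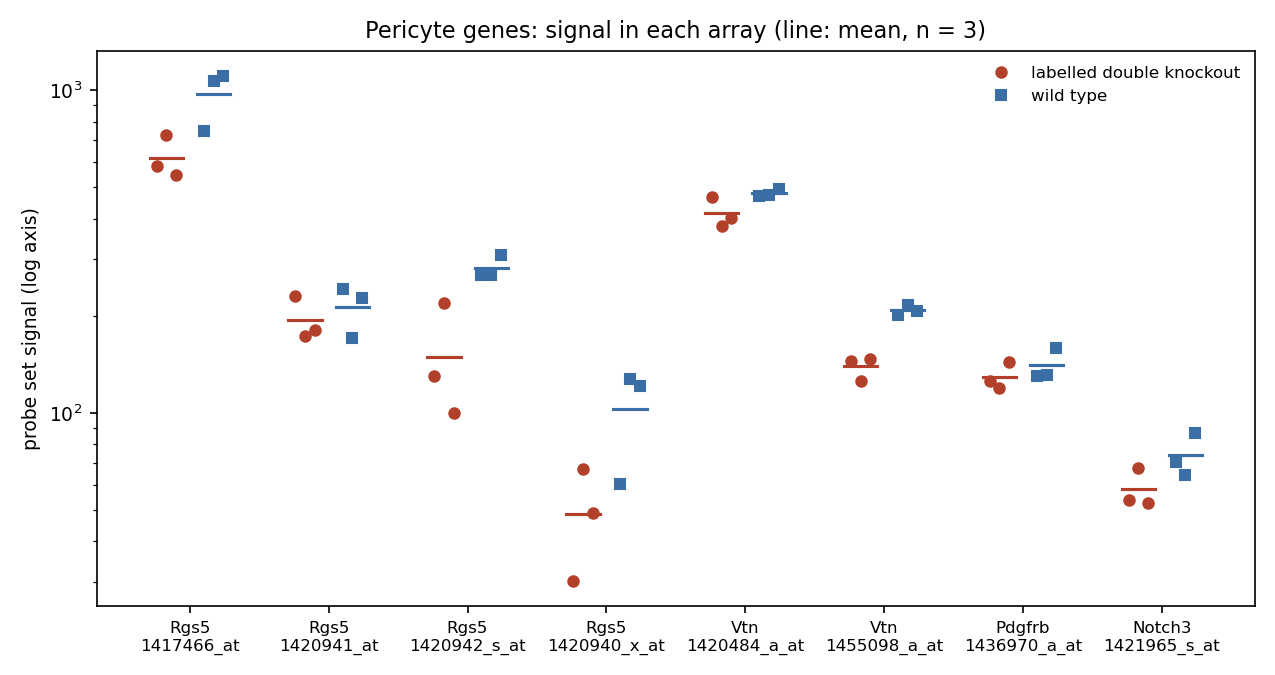
Signal in each array (log axis) for every tested probe set of Rgs5, Vtn, Pdgfrb and Notch3, DKO-labelled arrays left and WT arrays right, with the mean of 3 arrays as a line. The 2 groups separate on 2 of 4 Rgs5 and both Vtn probe sets and overlap on those of Pdgfrb and Notch3.

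Smooth muscle genes overlapped between the groups on every tested probe set. Acta2, the smooth muscle actin, read 149.7, 159 and 129 in DKO-labelled arrays, against 153, 124 and 127 in WT arrays, a log2 difference of 0.11 with a 95% interval of -0.20 to 0.42. Its other 2 probe sets read under 18 signal units in all arrays and were not tested. Myl9, a regulatory light chain of smooth muscle myosin, read 135, 109 and 125 in DKO-labelled arrays, against 149, 95.95 and 117 in WT arrays, a log2 difference of 0.04 with a 95% interval of -0.33 to 0.41. Tagln, the actin-binding protein transgelin, lay below the filter with 10.2, 51.9 and 30.1 in DKO-labelled arrays, against 24.7, 33.6 and 30.2 in WT arrays, where DKO-labelled replicates 1 and 2 were the lowest and the highest of all arrays. Myh11, the smooth muscle myosin heavy chain, also lay below the filter, with 27.1, 33.1 and 28.3 in DKO-labelled arrays, against 25.9, 21.6 and 22.5 in WT arrays on the brighter of its probe sets. Its DKO-labelled arrays lay above the WT arrays by a few units, all under the median of the array.

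Set against each other, the endothelial and mural classes had medians whose order depended on the members counted and the arrays kept. The mural median minus the endothelial median of the log2 differences was -0.075 over the tested members, and 0.033, with the sign turned, when members below the filter were counted too (24 endothelial and 9 mural genes). Without DKO-labelled replicate 2 it was 0.027 and without WT replicate 1 it was -0.17, in a range of -0.17 to 0.03 over the fits that left out 1 array. In each array the median deviation from the mean of the 6 arrays was -0.03, 0.07 and -0.08 in DKO-labelled arrays, against 0.10, -0.15 and 0.10 in WT arrays over the endothelial members. Over the mural members it was -0.011, -0.11 and -0.12 in DKO-labelled arrays, against 0.08, -0.02 and 0.19 in WT arrays. Both classes overlapped between the groups, and the lowest endothelial value was that of WT replicate 2.

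Split by cell, the pericyte members stood at -0.15, -0.12 and -0.19 in DKO-labelled arrays, against 0.02, 0.03 and 0.28 in WT arrays, without overlap, and the smooth muscle members at 0.12, 0.02 and -0.03 in DKO-labelled arrays, against 0.19, -0.22 and -0.08 in WT arrays, with overlap. With members below the filter counted too, the pericyte median of the log2 differences was -0.20 over 5 genes and the smooth muscle median 0.07 over 4. Over the tested members, the mural median therefore combined pericyte members that were lower with Acta2 and Myl9, which were slightly higher. On the brightest tested probe sets, the 95% intervals of all of them but Rgs5 admit changes in either direction. Other probe sets differed in this: the interval was -0.80 to -0.26 on the dimmer Vtn probe set. It was -0.48 to 0.24 on the Rgs5 probe set that did not follow the others. Below the filter, the smooth muscle member Tagln was lower (-0.063) and Myh11 higher (0.21). The mural median rests on few genes. The median of the microglia list also stood lower in all 3 DKO-labelled arrays, whereas that of the astrocyte list overlapped between the groups. Without overlap, 6 of the 11 microglia genes were lower, and of the 8 astrocyte genes 3 were lower and 2 higher. Of all genes, 11.1% were lower and 12.2% higher in this way. The part of microglia and astrocytes in the pericyte values was not tested. These medians are descriptions over members chosen with results of these data known, and carry no test.

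**Figure D4:**
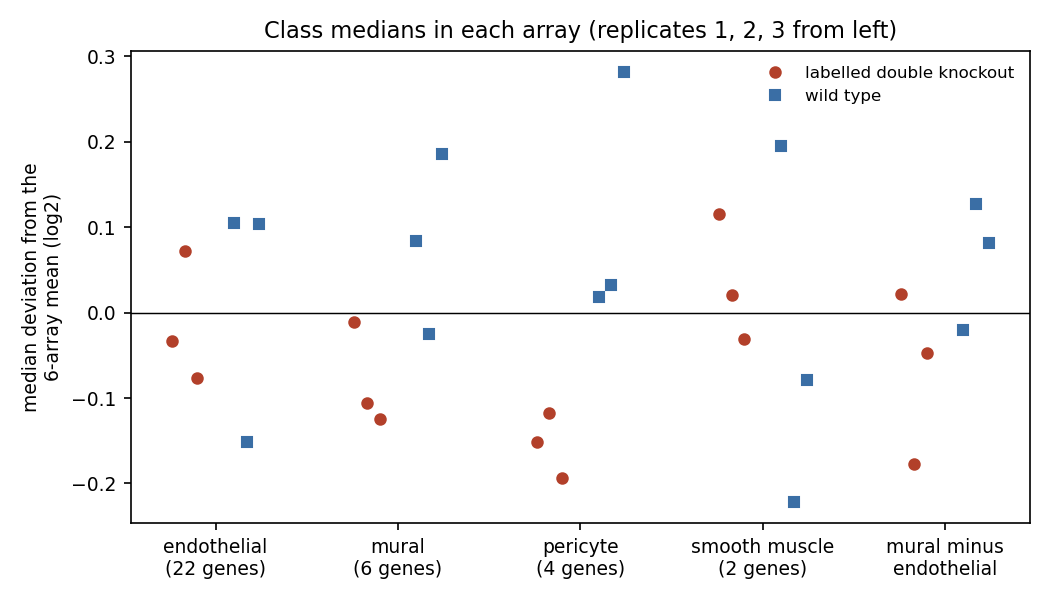
Median deviation from the mean of the 6 arrays (log2) over the tested members of each class, 1 point per array, DKO-labelled arrays left and WT arrays right, replicates 1, 2 and 3 from left. The groups overlap in the endothelial, mural and smooth muscle classes and in the difference of the first 2, and do not overlap in the pericyte class.

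Other genes of the vessel wall, from lists beyond the members, gave 1 call. Of 20 tested genes of vascular signalling 12 were lower and none passed, with a median log2 difference of -0.07. Their smallest p-values belonged to Apln, the apelin peptide, which read 85.6, 93.8 and 92.3 in DKO-labelled arrays, against 181, 185 and 113 in WT arrays, a log2 difference of -0.69 with an SE of 0.18 (limma adjusted p = 0.109), and to Hey1, a Notch target, which read 235, 193 and 235 in DKO-labelled arrays, against 318, 261 and 342 in WT arrays, a log2 difference of -0.44 with an SE of 0.14 (limma adjusted p = 0.154). Neither overlapped between the groups. Of 18 tested barrier and junction genes 9 were lower and 1 passed, with a median of 0.0091. Tfrc, the transferrin receptor that barrier endothelium and neurons express, rose and read 1215, 1327 and 1402 in DKO-labelled arrays, against 813, 960.2 and 833 in WT arrays, a log2 difference of 0.59 with an SE of 0.11 (limma adjusted p = 0.0374). Its call was lost with each array shifted to the common median (adjusted p = 0.0507), without an intensity trend (0.0828) and with no filter (0.14). The same held with the replicate number as a block (0.0561) and without both WT replicate 1 and DKO-labelled replicate 2 (0.2604). It was also lost in every fit that left out 1 array except that without WT replicate 2 (adjusted p of 0.0629 to 0.176 in the other 5), and its adjusted p ran from 0.0199 to 0.2604 over the alternatives.

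Of 10 further pericyte and smooth muscle genes tested 6 were lower, 4 of them without overlap, and none passed, where 5357 of all 11053 genes were lower and 11.1% were so without overlap, with a median log2 difference of -0.21. Cald1, the actin-binding caldesmon, read 199, 150.2 and 166 in DKO-labelled arrays, against 232, 200.1 and 282 in WT arrays, a log2 difference of -0.43 with an SE of 0.15 (limma adjusted p = 0.207), and Mylk, the myosin light chain kinase, read 119.7, 67.3 and 96.6 in DKO-labelled arrays, against 131, 111 and 135 in WT arrays, a log2 difference of -0.38 with an SE of 0.19 (limma adjusted p = 0.337). With genes below the filter counted too, 12 of 20 were lower and the median was -0.09. Of 12 basement membrane genes 6 were lower and none passed (median -0.0049). There Sparc, a matrix glycoprotein, read 2031, 2128 and 2134 in DKO-labelled arrays, against 1710.2, 812 and 1811 in WT arrays, a log2 difference of 0.62 with an SE of 0.25 (limma adjusted p = 0.253), where WT replicate 2 stood far below the rest, and Lamb2, a laminin chain, read 51.3, 53.9 and 76.1 in DKO-labelled arrays, against 48.5, 32.1 and 40.7 in WT arrays, a log2 difference of 0.43 with an SE of 0.19 (limma adjusted p = 0.2803).

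Among markers of the cells around the vessels 2 genes passed the test, and the part of these cells in the members' values was not tested. Aqp4, the water channel of the astrocyte endfeet that cover vessels, fell and read 592, 392 and 499.8 in DKO-labelled arrays, against 970.0, 972 and 958 in WT arrays, a log2 difference of -0.96 with an SE of 0.14 (limma adjusted p = 0.0139). Its call held in 13 of 17 alternatives. Among those where it was lost were no filter (adjusted p = 0.108), without WT replicate 1 (0.0568) and without DKO-labelled replicate 3 (0.067). The range was 0.00759 to 0.155. The other 7 astrocyte genes did not pass, and 5 of the 8 were lower and 3 higher (median -0.07). Gjb6, a connexin, read 682, 1076 and 924 in DKO-labelled arrays, against 624, 558 and 566 in WT arrays, and Slc1a3, a glutamate transporter, read 1220.2, 1408 and 1491 in DKO-labelled arrays, against 1050.2, 1071 and 1014 in WT arrays, both higher without overlap, with log2 differences of 0.58 (limma adjusted p = 0.109) and 0.38 (limma adjusted p = 0.118). S100b read 570, 447 and 581 in DKO-labelled arrays, against 769, 799 and 738 in WT arrays. Gfap read 553, 193 and 596 in DKO-labelled arrays, against 775, 609 and 806 in WT arrays. S100b and Gfap were lower without overlap, with log2 differences of -0.52 (limma adjusted p = 0.072) and -0.83 (limma adjusted p = 0.258). Gjb6, Slc1a3, S100b and Gfap were named after their values were seen. Of 10 meningeal fibroblast genes 9 were lower and 1 passed (median -0.27). That gene was Igfbp2, an insulin-like growth factor binding protein, which fell and read 269, 245 and 214 in DKO-labelled arrays, against 565, 399 and 660.0 in WT arrays, a log2 difference of -1.08 with an SE of 0.17 (limma adjusted p = 0.0225). Its call was lost with no filter (adjusted p = 0.14), without WT replicate 1 (0.0784), without DKO-labelled replicate 2 (0.0995) and without DKO-labelled replicate 3 (0.105). It was also lost without both WT replicate 1 and DKO-labelled replicate 2 (0.247), in a range of 0.00278 to 0.247. The per-array median of the fibroblast list was -0.02, -0.18 and -0.13 in DKO-labelled arrays, against 0.11, -0.17 and 0.48 in WT arrays, highest in WT replicate 3, and overlapped.

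All 11 microglia and macrophage genes tested were lower and none passed (median -0.46), with Laptm5 at 156, 141 and 114 in DKO-labelled arrays, against 204, 192 and 227 in WT arrays and P2ry12 at 255, 162 and 166 in DKO-labelled arrays, against 385, 272 and 321 in WT arrays. The per-array medians of that list were 0.03, -0.38 and -0.24 in DKO-labelled arrays, against 0.31, 0.12 and 0.17 in WT arrays, and did not overlap. Of the 2 red blood cell genes tested both were lower and none passed (median -0.30). Bpgm read 525, 475 and 418 in DKO-labelled arrays, against 544, 508 and 571 in WT arrays and Alas2 38.3, 74.5 and 26.8 in DKO-labelled arrays, against 58.1, 67.1 and 65.2 in WT arrays, both with overlap. The 4 choroid plexus genes tested were lower and none passed (median -0.73), with WT replicate 3 the highest array in each, as in Clic6 with 30.6, 26.1 and 27.6 in DKO-labelled arrays, against 37.3, 28.9 and 109.8 in WT arrays and Kcnj13 with 75.1, 28.1 and 53.1 in DKO-labelled arrays, against 45.95, 48.4 and 281 in WT arrays. Of 8 neuron genes 5 were higher and none passed (median 0.12), among them Rbfox3 with 3372, 3691 and 3719 in DKO-labelled arrays, against 2709, 3061 and 2845 in WT arrays and Slc17a7 with 1494, 1775 and 1709 in DKO-labelled arrays, against 870.4, 1775 and 789 in WT arrays.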

How the data were processed

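Each deposited value is the intensity of a probe set on a linear scale, which the authors had scaled, as the values show: every array had a mean of 150.0 once 2% was trimmed from each end. Software, settings and build are not given in the sources used here. All 6 columns were mapped to samples by accession, and groups and replicate numbers came from the descriptions. A RefSeq table (GRCm38.p6) gave current symbols through the platform's gene numbers, and was otherwise used only for neighbours and promoters. A floor of 1 was applied, which 4.35% of values lay under, before log2(signal + 16). The 22518 of 45037 probe sets with a mean above the median were tested. Groups were compared with limma 3.58.1 in R 4.3.3 (lmFit, eBayes with an intensity trend), two-sided, with Benjamini-Hochberg adjustment over all tested probe sets and an adjusted p under 0.05 as the threshold. The step was tested on simulated data with changes larger than the difference of any member here. That test does not show how well changes of the members' size are found. Each gene stands by its brightest tested probe set. Members, lists, tests and the rule for named genes were chosen with earlier results of these data known. The rule names all members, and from each further list up to 4 genes past the threshold or else the 2 with the smallest p. Egr1, Egr3, Xist and Ttr stand outside that rule, as checks of the arrays. Gjb6, Slc1a3, S100b and Gfap stand outside it too, and were added after their values were seen. Alternatives were other pseudocounts, scalings, filters and variance models, array weights, left-out arrays, the replicate number as a block, a looser threshold and other ways of representing a gene. Figures used matplotlib 3.10.9.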

Additional observations from a re-analysis of the deposited data

How the results depend on the processing

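The number of members past the threshold stayed at 0 under pseudocounts of 1 and 64, both other scalings, no filter, the 75% filter, both other variance models and array weights. It was 0 to 1 when 1 array was left out (Pltp without DKO-labelled replicate 1, Rgs5 without DKO-labelled replicate 2) and 2 at an adjusted p under 0.1. Of all tested probe sets 229 passed, 10 with no filter, 131 with no intensity trend, 12 without both WT replicate 1 and DKO-labelled replicate 2 and 586 at an adjusted p under 0.1. With 1 array left out the count ran from 34 to 292, with 97 without WT replicate 1, 143 without DKO-labelled replicate 1, 53 without DKO-labelled replicate 2 and 34 without DKO-labelled replicate 3. The endothelial median ran from -0.16 to -0.01 with 1 array left out. The mural median ran from -0.18 to -0.096, and was -0.063 with no filter. With the 75% filter it was -0.42, but of the mural members only the pericyte genes Rgs5 and Vtn remained there. Mural minus endothelial was -0.26 with the 75% filter, on those same mural genes, 0.033 with no filter and -0.17 to 0.027 with 1 array left out. With the replicate number as a block 182 probe sets and 0 members passed, Tfrc did not (adjusted p = 0.0561), and no other call on a gene followed here changed. Same-numbered arrays deviated from their group means with Pearson's r of -0.15, 0.0013 and -0.10. With 3 arrays per group these values cannot decide whether the numbers pair arrays. Over 34 member probe sets and at most 17 alternatives each, 27 of 561 log2 differences changed sign, in 15 probe sets whose difference was at most 0.16 in size. The cause of these shifts was not tested. The number of arrays limits precision, and dim members such as Cdh5, Tie1, Anpep, Tagln and Myh11 stood under the filter.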
